A study of Mus musculus with 20 samples.

Results

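A group of 44 genes of DNA replication and S phase was followed by RNA-seq through 20 cultures of mouse cardiac fibroblasts. The genes were taken by name from a list that was drawn up with earlier results of these data known, and all 44 were found among the 55414 genes of the count table, with 1 row each. They comprise 2 licensing factors, 12 components of the replicative helicase, 7 polymerase or primase subunits, 6 clamp or clamp loader subunits, 3 subunits of the single-strand binding protein RPA, 2 enzymes of Okazaki fragment maturation, 5 enzymes of nucleotide supply, 4 factors of chromatin or histone mRNA and 3 genes of S phase entry. All 44 passed the filter on low counts, and each had at least 23 reads in every library.

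The cultures came from the hearts of Hyal2 fl/fl mice, whose gene for the hyaluronan-degrading enzyme Hyal2 can be removed by Cre recombinase, although the genotype label reads Wild Type C57BL/6J. Ages are not in the sources used here. The cells were treated at P2 after 24 h of serum starvation. Each of the 5 groups holds 4 cultures: GFP (control adenovirus), Cre (adenovirus for Hyal2 deletion), Hyal2 (adenovirus for Hyal2 overexpression), and GFP_TGFB and Cre_TGFB, which are the GFP and Cre cultures with TGFB. Every culture, controls included, was exposed to an adenovirus for 5 h and collected 48 h later. The protocol names bFGF and TGFb at 20 ng/mL in a wording that does not show whether the cultures without TGFB received bFGF in its place, so an effect of TGFB and an effect of missing bFGF cannot be told apart. Growth medium before treatment contained bFGF in all groups. Replicates 1 and 2 of every group were female and replicates 3 and 4 male, and each replicate number carries 1 isolate name in all 5 groups.

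Replication starts when Cdc6 and Cdt1 load the ring of the MCM2-7 subunits onto origins in G1. In S phase Cdc45 and the GINS complex turn that ring into an active helicase, primase and polymerase alpha lay down primers, RFC loads the sliding clamp Pcna, and Fen1 and Lig1 process and join the Okazaki fragments. Many of these genes are known targets of E2F transcription factors, which are released from the pocket proteins when G1 cyclins and their kinases become active. Fibroblasts of the healthy heart are mostly out of the cell cycle and can divide when cultured. Transforming growth factor beta drives fibroblasts towards a matrix-producing state and slows the cycle of many cell types.

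Library totals ranged from 38.6 to 104.8 M counts, so that 3 counts corresponded to 0.0286 to 0.0777 CPM, which are counts scaled so that libraries of different depth can be compared. This is a limit that covers counting error only. Hyal2, the targeted gene, lay at 36.6 to 44.5 CPM in GFP and at 33.4 to 41.1 CPM in GFP_TGFB. After Cre it lay at 7.62 to 13.5 CPM, after Cre with TGFB at 5.37 to 9.14 CPM, and with the overexpression virus at 399 to 1419 CPM. The 8 fibroblast markers summed to 36991 to 69155 CPM in all libraries, whereas the cardiomyocyte markers Myh6 and Nppa and the T cell marker Cd3e were at 3 counts or fewer in every library. Other cardiomyocyte markers were detected, with Tnnt2 at 0.612 to 3.63 CPM and Tnni3 at 0.406 to 1.35 CPM. All 6 cardiomyocyte markers summed to 1.22 to 4.55 CPM. Leukocyte markers were present, at a sum of 101 CPM or more in every library. The 44 genes together took 0.0703% to 0.103% of the counts of a library. In the annotation used for names, 14 of the 44 share exon bases with another gene, 13 of them with a gene on the other strand (among these Tk1, Lig1, Rfc5, Slbp, Ccne2, Fen1, Cdc45 and Mcm7), and Rpa1 shares them with Gm47300 on its own strand. The strand setting of the counting is not given in the sources used here, so reads of such pairs cannot be told apart.

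Promoters are shown first for 5 genes on which the results below turn: Mcm5 and Mcm6, subunits of the same ring that moved in opposite directions with TGFB; Cdc6, which loads that ring; Tk1, the gene with the largest fall; and Rpa1, which rose. Each sequence is the 250 bases before the annotated start, 5′ to 3′ on the gene's strand, from RefSeq on build GRCm38.p6, an earlier build than that of the counts. Capitals mark E2F letters (TTTCCCGC, TTTCGCGC, TTTGCCGC or TTTGGCGC) and CCAAT boxes (CCAAT), on either strand.
Mcm5 (chr8:75109259-75109508, + strand): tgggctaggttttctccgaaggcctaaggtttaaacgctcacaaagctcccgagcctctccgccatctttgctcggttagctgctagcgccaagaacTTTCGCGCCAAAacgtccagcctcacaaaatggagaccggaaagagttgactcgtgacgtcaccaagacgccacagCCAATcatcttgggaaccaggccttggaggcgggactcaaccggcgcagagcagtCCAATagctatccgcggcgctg
Mcm6 (chr1:128359706-128359955, - strand): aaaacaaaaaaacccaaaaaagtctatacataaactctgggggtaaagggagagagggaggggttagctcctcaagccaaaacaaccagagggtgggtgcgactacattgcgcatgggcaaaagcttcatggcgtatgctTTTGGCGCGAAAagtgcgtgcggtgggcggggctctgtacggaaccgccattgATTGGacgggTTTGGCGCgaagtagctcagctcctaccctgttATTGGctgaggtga
Cdc6 (chr11:98907901-98908150, + strand): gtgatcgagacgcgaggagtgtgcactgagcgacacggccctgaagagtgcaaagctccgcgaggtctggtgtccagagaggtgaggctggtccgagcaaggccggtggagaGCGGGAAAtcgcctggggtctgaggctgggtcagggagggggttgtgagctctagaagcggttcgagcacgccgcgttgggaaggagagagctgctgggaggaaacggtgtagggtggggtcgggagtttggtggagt
Tk1 (chr11:117826015-117826264, - strand): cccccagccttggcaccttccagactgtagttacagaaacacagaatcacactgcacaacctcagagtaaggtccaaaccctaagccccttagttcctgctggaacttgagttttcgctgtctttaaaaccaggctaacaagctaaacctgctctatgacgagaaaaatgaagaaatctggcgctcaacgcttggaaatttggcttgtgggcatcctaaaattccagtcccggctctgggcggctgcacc
Rpa1 (chr11:75348384-75348633, - strand): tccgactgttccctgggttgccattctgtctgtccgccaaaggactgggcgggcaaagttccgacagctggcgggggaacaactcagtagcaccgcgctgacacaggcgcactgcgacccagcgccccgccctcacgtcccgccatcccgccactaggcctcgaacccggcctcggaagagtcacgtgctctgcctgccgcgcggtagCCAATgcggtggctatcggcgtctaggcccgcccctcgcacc

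The 250 bases of Mcm5 held 2 overlapping E2F matches, from 153 and 149 bases before the start, and 2 CCAAT boxes. Those of Mcm6 held 3 E2F matches, an overlapping pair from 110 and 106 bases before the start and a single match from 47, again with 2 CCAAT boxes. Cdc6 had 1 E2F match from 138 bases before the start and no CCAAT box, Rpa1 had 1 CCAAT box and no E2F match, and Tk1 had neither. Of the 44 genes, 36 had a RefSeq promoter in the table used, and Mcm4, Gins1, Gins2, Gins4, Prim2, Pole, Rfc2 and Ccne2 had none. Over windows of 300 bases (250 before to 50 after the start), E2F letters stood in 12 of the 36 genes (33.3%), against 4.48% of the 11227 tested genes with a promoter and 2.26% of all 32851 promoters. The 12 were Cdc6, Cdt1, Mcm3, Mcm5, Mcm6, Mcm7, Gins3, Pola1, Pold1, Rfc3, Lig1 and Uhrf1. A CCAAT box stood in 22 of the 36 (61.1%, against 42.5% of the tested genes and 37.4% of all promoters), and the letters of the cell cycle homology region (TTTGAA or TTCGAA) in 7 of the 36 (19.4%, against 16.5% and 19.2%). In 1 of the 42 promoters of these genes an E2F match overlapped another motif. A match of letters is a description and was not tested.

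With TGFB in cells with intact Hyal2 (GFP_TGFB against GFP), more of the replication genes fell than rose. In edgeR's quasi-likelihood test, adjusted by Benjamini-Hochberg over the 15624 genes tested, 19 of 44 were lower (43.2%) and 4 higher (9.09%). Among all genes tested 28.6% were lower and 26.6% higher, so the share that fell stood above the background and the share that rose below it. The counts by role in the following paragraphs stand beside the same 28.6% and 26.6%. The median log2 fold change was -0.30 over the 44 and -0.02 over all genes. Without overlap between the 4 libraries with and the 4 without TGFB, 12 of the 44 were lower and 2 higher, against 25.5% and 24.6% of all genes. On this measure the share that fell was near that of all genes, and the share that rose was below it. With the isolate as a replicate block, 22 were lower and 6 higher, against 32.1% and 29.8% of all genes.

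**Figure D1:**
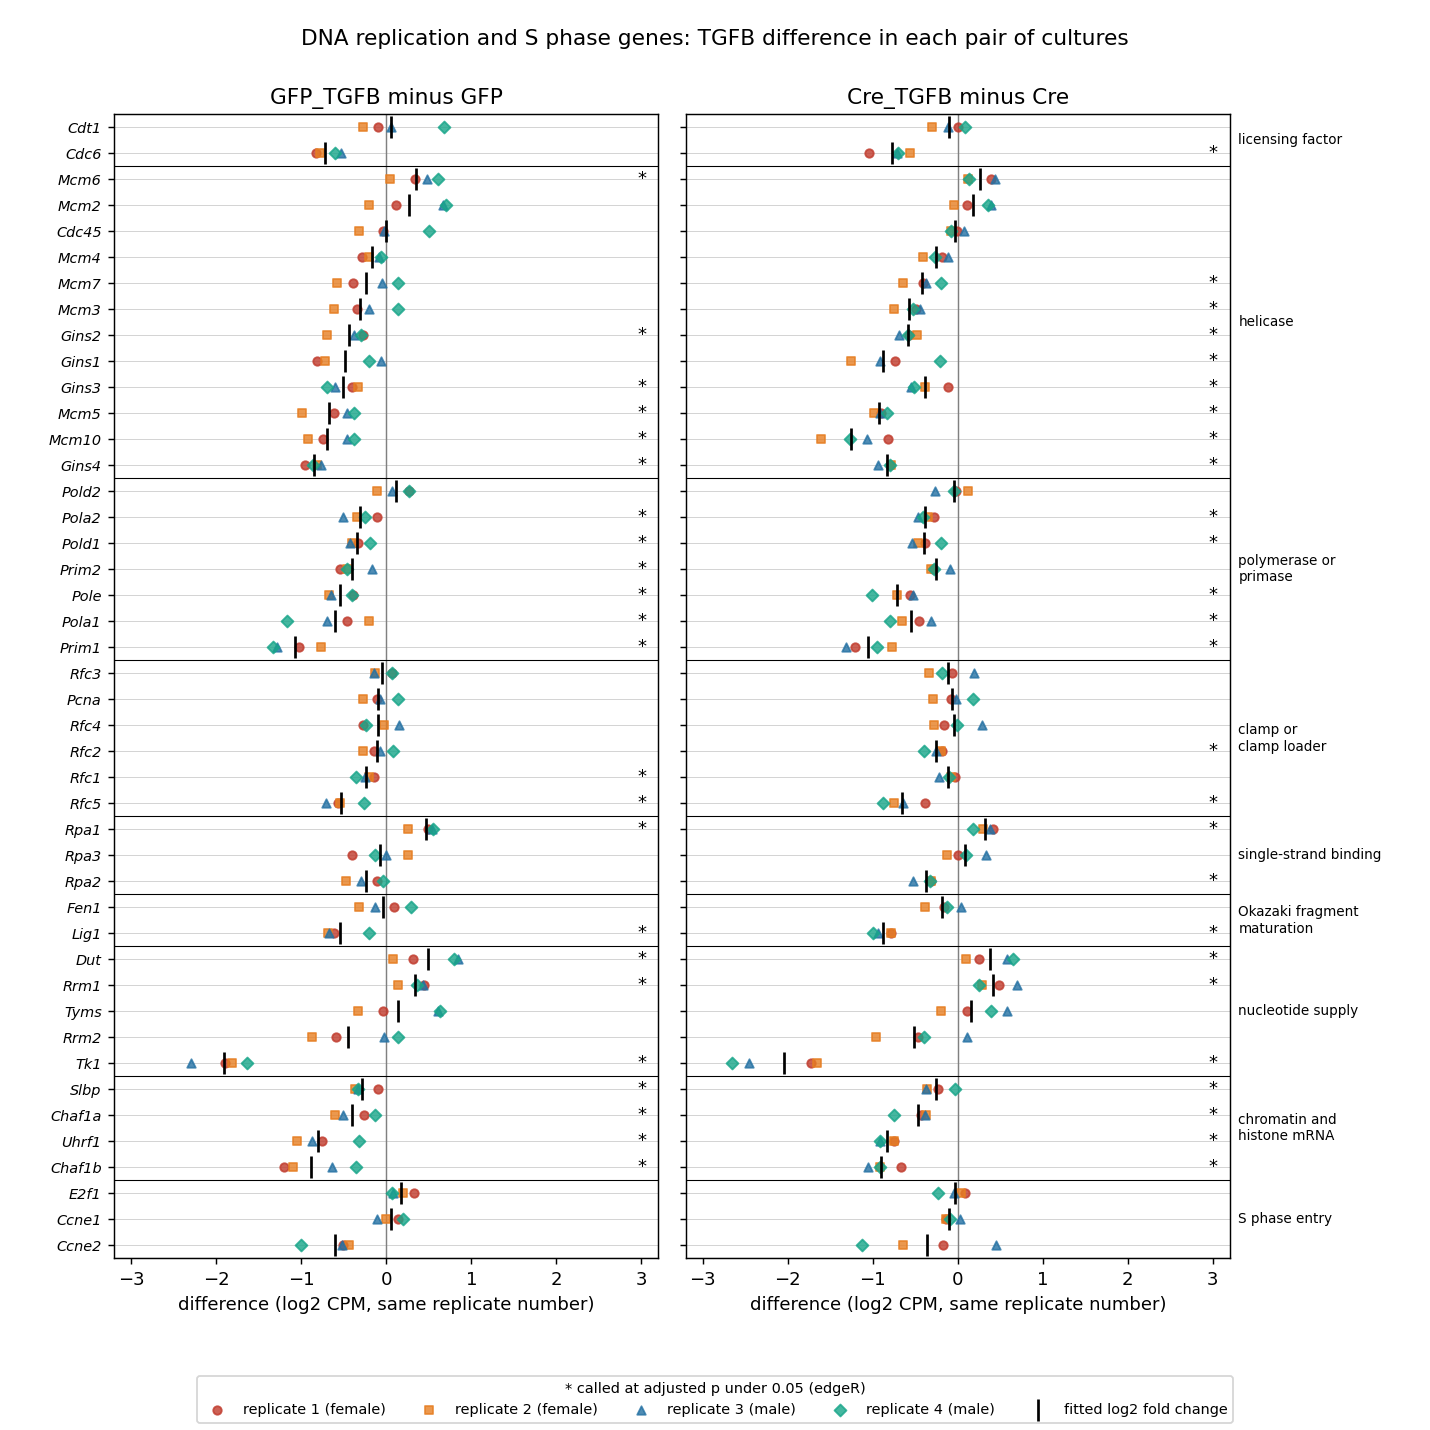
Difference with TGFB, in log2 CPM, for each of the 44 genes (y axis, grouped by role) in control-virus cultures (left) and Hyal2-deleted cultures (right). Coloured points are the 4 isolates, the black bar is the fitted log2 fold change and a star marks an adjusted p under 0.05 in edgeR; the points of Tk1 lie between -2.66 and -1.64, while those of Pcna lie between -0.29 and 0.18.

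Licensing factors were not called. Cdc6, the ATPase that helps load the MCM ring, lay at 1.96, 2.96, 1.42 and 1.24 CPM in GFP (replicates 1 to 4) and at 1.08, 1.70, 0.969 and 0.806 CPM in GFP_TGFB. It was lower with TGFB in all 4 isolates, but the isolates differed from each other as much as the treatments, and the groups overlapped. Its log2 fold change was -0.72 (SE 0.31, adjusted p = 0.0539 in edgeR), and with the isolate as a block the adjusted p was 0.000842. Cdt1, the other loading factor, lay at 3.69, 4.77, 3.15 and 2.60 CPM without and 3.44, 3.92, 3.27 and 4.18 CPM with TGFB, a log2 fold change of 0.05 (SE 0.18, adjusted p = 0.814 in edgeR).

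The helicase genes split. Of the 12, 5 fell (Mcm5, Mcm10, Gins2, Gins3 and Gins4) and 1 rose (Mcm6). Gins4, the Sld5 subunit of GINS, lay at 43.7, 39.3, 41.6 and 44.8 CPM in GFP and at 22.5, 22.2, 24.3 and 24.7 CPM in GFP_TGFB. All libraries with TGFB were well below all libraries without it, and the isolates differed little (log2 fold change -0.85, SE 0.06, adjusted p = 8.27e-10 in edgeR). Mcm10, which helps to activate the helicase, lay at 2.53, 3.97, 1.98 and 1.48 CPM without and 1.49, 2.08, 1.43 and 1.12 CPM with TGFB. It was lower in each isolate, while the ranges of the groups overlapped (log2 fold change -0.70, SE 0.28, adjusted p = 0.0410 in edgeR). Cdc45, which joins the ring to GINS, was nearest to no change: 6.15, 6.93, 4.37 and 4.10 CPM without and 5.99, 5.53, 4.29 and 5.81 CPM with TGFB, a log2 fold change of 0.00 (SE 0.16, adjusted p = 0.999 in edgeR). Gins3 and Gins2, the Psf3 and Psf2 subunits, fell by 0.51 and 0.44 on the log2 scale, and Gins1, the Psf1 subunit, had -0.49 and was not called (adjusted p = 0.0995 in edgeR).

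The 6 subunits of the MCM ring, which act in equal numbers in 1 complex, were looked at together after their values had been seen. Mcm5 lay at 12.6, 18.9, 8.74 and 7.87 CPM in GFP and 8.21, 9.54, 6.33 and 6.03 CPM in GFP_TGFB. It fell by 0.68 on the log2 scale (SE 0.27, adjusted p = 0.0393 in edgeR), with a decrease in every isolate and overlapping groups. Mcm6 went the other way, from 31.2, 41.3, 28.2 and 26.6 CPM to 39.6, 42.5, 39.4 and 40.5 CPM. It rose by 0.35 on the log2 scale (SE 0.12, adjusted p = 0.0239 in edgeR), and the libraries with TGFB lay closer together than those without it. The others were not called, with log2 fold changes of -0.31 for Mcm3, -0.24 for Mcm7, -0.17 for Mcm4 and 0.26 for Mcm2 (adjusted p = 0.0847 to 0.357 in edgeR). Mcm2 was called higher with the isolate as a block (adjusted p = 0.0375). The difference between subunits was not itself tested.

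**Figure D2:**
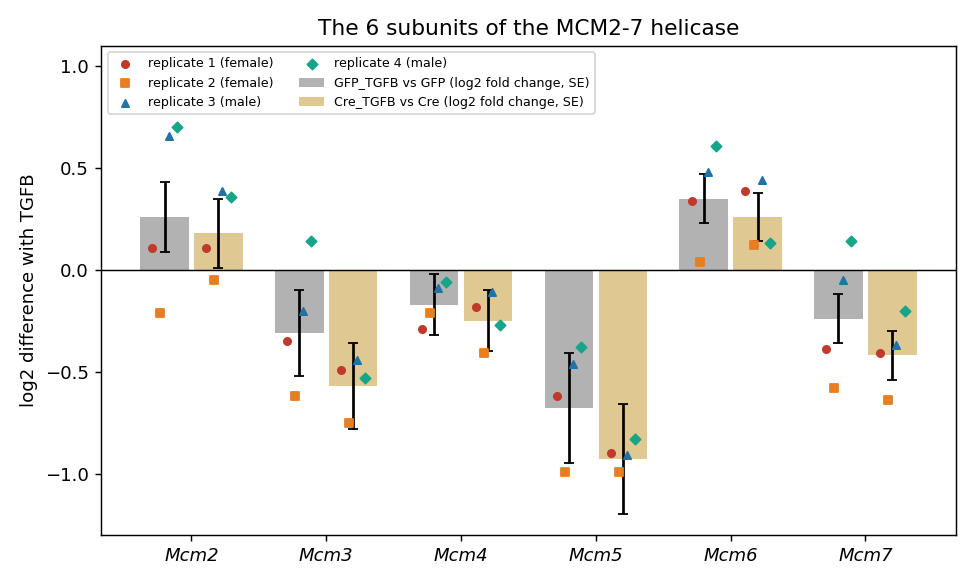
Log2 difference with TGFB (y axis) for the 6 MCM2-7 subunits (x axis) in control-virus (grey) and Hyal2-deleted cultures (tan). Bars are fitted log2 fold changes with their SE and points the 4 isolates; Mcm5 is below 0 and Mcm6 above 0 in all 8 pairs of cultures.

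Of the polymerase and primase genes 6 of 7 fell. Prim1, the catalytic subunit of primase, lay at 3.75, 4.54, 3.74 and 4.26 CPM in GFP and at 1.82, 2.65, 1.51 and 1.66 CPM in GFP_TGFB. The groups did not overlap (log2 fold change -1.08, SE 0.18, adjusted p = 3.88e-05 in edgeR). Pola1, the catalytic subunit of polymerase alpha, went from 7.22, 8.72, 9.53 and 9.93 CPM to 5.23, 7.57, 5.87 and 4.40 CPM, with replicate 2 the highest of the TGFB libraries and above the lowest GFP library (log2 fold change -0.61, SE 0.15, adjusted p = 0.00184 in edgeR). Pole, Prim2, Pold1 and Pola2, which are the catalytic subunit of polymerase epsilon, the large primase subunit, the catalytic subunit of polymerase delta and the accessory subunit of polymerase alpha, fell by 0.55, 0.41, 0.35 and 0.31 on the log2 scale. Pold2, the accessory subunit of polymerase delta, lay at 12.4, 14.6, 15.2 and 12 CPM without and 14.8, 13.5, 15.8 and 14.3 CPM with TGFB and was not called (log2 fold change 0.11, SE 0.09, adjusted p = 0.321 in edgeR).

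Of the clamp and clamp loader genes 2 of 6 fell, a share near the 28.6% of all genes tested. Rfc5, a small subunit of the clamp loader, went from 10.5, 9.87, 8.72 and 7.68 CPM to 7.02, 6.75, 5.33 and 6.40 CPM, without overlap (log2 fold change -0.53, SE 0.11, adjusted p = 0.000565 in edgeR). Rfc1, the large subunit, went from 44.7, 48.0, 47.8 and 51.6 CPM to 40.4, 41.8, 40 and 40.2 CPM, also without overlap but by less (log2 fold change -0.24, SE 0.07, adjusted p = 0.00475 in edgeR). Rfc3 lay at 7.53, 8.92, 7.91 and 6.67 CPM and at 7.89, 8.07, 7.12 and 6.96 CPM, a difference within the spread of the isolates (log2 fold change -0.05, SE 0.11, adjusted p = 0.724 in edgeR). Pcna, the clamp itself and a common marker of proliferating cells, had a log2 fold change of -0.10 (SE 0.14, adjusted p = 0.555 in edgeR), with means of 28.5 ± 5.43 CPM (SD, n = 4) in GFP and 26.6 ± 2.07 in GFP_TGFB. Rfc4 and Rfc2 had -0.10 and -0.11 and were not called.

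The 3 subunits of RPA, which coats single-stranded DNA, differed. Rpa1, the large subunit, went from 110, 123, 114 and 119 CPM in GFP to 154, 146, 164 and 174 CPM in GFP_TGFB. Every TGFB library was above every GFP library (log2 fold change 0.46, SE 0.09, adjusted p = 0.00022 in edgeR). Rpa2 lay at 8.42, 9.83, 7.41 and 6.21 CPM without and 7.80, 7.10, 6.02 and 6.03 CPM with TGFB (log2 fold change -0.24, SE 0.16, adjusted p = 0.192 in edgeR, and 0.0277 with the isolate as a block). Rpa3, the smallest subunit, lay at 8.86, 7.19, 8.74 and 9.74 CPM and at 6.72, 8.54, 8.72 and 8.89 CPM, with the isolates moving in both directions (log2 fold change -0.07, SE 0.13, adjusted p = 0.669 in edgeR).

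For Okazaki fragments, Lig1, the ligase that seals them, fell, and Fen1, the flap endonuclease, was not called. Lig1 went from 19.1, 21.5, 18.8 and 17.5 CPM to 12.4, 13.4, 11.7 and 15.2 CPM, without overlap (log2 fold change -0.55, SE 0.09, adjusted p = 4.58e-05 in edgeR). Fen1 lay at 11.6, 15.4, 8.81 and 8.22 CPM and at 12.4, 12.3, 8.04 and 10.1 CPM, where the difference between isolates exceeded that between treatments (log2 fold change -0.04, SE 0.20, adjusted p = 0.871 in edgeR).

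Nucleotide supply held both the largest fall of the 44 genes and 2 of the 4 rises. Tk1, the salvage enzyme thymidine kinase, went from 9.62, 11.5, 8.31 and 5.78 CPM to 2.55, 3.23, 1.66 and 1.83 CPM. All TGFB libraries lay below all GFP libraries (log2 fold change -1.91, SE 0.26, adjusted p = 5.17e-06 in edgeR). Dut, the dUTPase that keeps uracil out of DNA, went from 17.3, 18.7, 12.4 and 13.4 CPM to 21.5, 19.7, 22.3 and 23.2 CPM, without overlap (log2 fold change 0.49, SE 0.15, adjusted p = 0.00857 in edgeR). Rrm1, the large subunit of ribonucleotide reductase, went from 95.9, 118, 83.3 and 89.3 CPM to 130, 130, 112 and 115 CPM, higher in every isolate while the highest GFP library lay within the TGFB range (log2 fold change 0.33, SE 0.12, adjusted p = 0.0212 in edgeR). Rrm2, the small subunit of the same enzyme, whose values are given after they were seen, lay at 15.4, 24.0, 8.99 and 8.99 CPM and at 10.2, 13.1, 8.80 and 9.89 CPM. It was lower with TGFB in 3 of the 4 isolates and was not called (log2 fold change -0.45, SE 0.32, adjusted p = 0.237 in edgeR). Tyms, thymidylate synthase, lay at 31.9, 40.8, 19.4 and 19.5 CPM and at 31.1, 32.5, 29.8 and 30.2 CPM, where the female isolates were lower and the male ones higher with TGFB (log2 fold change 0.14, SE 0.24, adjusted p = 0.635 in edgeR).

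All 4 genes of chromatin and histone mRNA fell. Chaf1b, a subunit of the CAF-1 complex that deposits histones behind the fork, went from 5.93, 7.53, 3.87 and 3.33 CPM to 2.55, 3.49, 2.47 and 2.59 CPM. It was lower in each isolate, with a small overlap of the groups (log2 fold change -0.89, SE 0.24, adjusted p = 0.00338 in edgeR). Uhrf1, which brings the maintenance DNA methyltransferase to new DNA, went from 10.5, 15.3, 8.54 and 6.77 CPM to 6.18, 7.35, 4.67 and 5.40 CPM, lower in each isolate with overlapping groups (log2 fold change -0.80, SE 0.21, adjusted p = 0.00352 in edgeR). Slbp, which binds the stem-loop of histone mRNA, went from 17.5, 20.0, 17.7 and 18.3 CPM to 16.3, 15.4, 14 and 14.4 CPM, without overlap (log2 fold change -0.29, SE 0.08, adjusted p = 0.00401 in edgeR). Chaf1a, the large CAF-1 subunit, fell by 0.40 on the log2 scale.

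None of the 3 genes of S phase entry was called. Ccne2, a cyclin E, lay at 2.64, 3.26, 2.03 and 2.60 CPM without and 1.84, 2.38, 1.40 and 1.27 CPM with TGFB, lower in each isolate with overlapping groups (log2 fold change -0.60, SE 0.27, adjusted p = 0.0627 in edgeR, and 0.0179 with the isolate as a block). Ccne1, the other cyclin E, lay at 18, 19.3, 14.7 and 13.4 CPM and at 19.6, 19.3, 13.6 and 15.3 CPM (log2 fold change 0.05, SE 0.16, adjusted p = 0.796 in edgeR). E2f1, the activating E2F, lay at 40.1, 39, 40.6 and 35.9 CPM and at 50.0, 44.9, 42.9 and 37.4 CPM, slightly higher with TGFB in each isolate (log2 fold change 0.17, SE 0.09, adjusted p = 0.129 in edgeR, and 0.0386 with the block).

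Some of these calls were lost when single libraries or isolates were left out, and the cause was not tested. The left-out fits had no isolate block. With the block and all libraries, adjusted p in edgeR was 0.000728 for Mcm5, 0.00218 for Mcm10, 0.000797 for Gins2 and 0.00182 for Pole. In the 12 fits that left out 1 of the 8 libraries compared or 1 isolate from all groups, the number of genes that fell ranged from 12, without replicate 1, to 21, and the number that rose from 1 to 5. The number that rose was 2 without replicate 1, replicate 3, GFP_TGFB replicate 2, GFP replicate 3 or GFP replicate 4, and 1 without replicate 4. The shares of all genes called in these fits are not given here, so these counts have no background beside them. The calls of Mcm5, Mcm10, Gins2, Pole and Chaf1a were lost without any 1 of GFP replicates 1 and 2 and GFP_TGFB replicates 3 and 4. Without GFP replicate 2, the highest library, their log2 fold changes shrank to -0.37, -0.37, -0.26, -0.31 and -0.25. Mcm6 and Rrm1 lost their calls without GFP replicate 3 or 4 or GFP_TGFB replicate 2, with values from 0.27 to 0.32, and Mcm5, Mcm10 and Rrm1 lost theirs without GFP_TGFB replicate 1 (-0.72, -0.68 and 0.30). The loss of a whole isolate ended 9 calls for replicate 1, 3 for replicate 2, 8 for replicate 3 and 6 for replicate 4. These were genes of the preceding sentences, with Prim2 (-0.36) and Chaf1b (-0.78) added for replicate 1, Pola2 (-0.24) for replicate 3 and Dut for replicates 3 and 4 (0.38 and 0.40). A total of 12 calls (Gins3, Gins4, Prim1, Pola1, Pold1, Rfc1, Rfc5, Rpa1, Lig1, Tk1, Uhrf1 and Slbp) held in all 19 alternatives run. With library totals in place of TMM factors, the median of all genes shifted by -0.10 on the log2 scale, and 2 of the 44 rather than 4 were higher (Rpa1 and Dut).

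Markers of fibroblasts and of other cells also moved with TGFB. In GFP_TGFB against GFP, 4 of 7 tested leukocyte markers, 3 of 6 endothelial markers and 6 of 8 fibroblast markers were called lower. Another fibroblast marker, 1 of the 8, was called higher. Of 5 pericyte markers 1 was higher and 1 lower. Among all genes tested 28.6% were lower and 26.6% higher. The leukocyte sum was 282 ± 100 CPM (SD, n = 4), at lowest 181, in GFP and 177 ± 69.8, at lowest 108, in GFP_TGFB. The endothelial sum was 36 to 41.1 CPM in GFP and 16 to 20.4 in GFP_TGFB, and the fibroblast sum 42829 to 64729 and 36991 to 46011 CPM. Mitochondrial genes took 0.625% to 1.20% of counts in GFP and 0.789% to 1.08% in GFP_TGFB. The part of these values in the result was not tested, and in bulk RNA fewer cells in S phase and less RNA per cell cannot be told apart.

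After Hyal2 deletion (Cre_TGFB against Cre) the replication genes again fell more often than they rose: 23 of 44 were lower (52.3%) and 3 higher (6.82%) in edgeR, against 29% and 27.5% of all genes tested. The median log2 fold change was -0.36, and 0.00 over all genes. The groups did not overlap for 19 lower and 2 higher genes, against 26.3% and 25% of all genes. With the isolate as a block, 26 were lower and 4 higher, against 32.6% and 31% of all genes. This comparison shares no library with that of GFP_TGFB and GFP. Both use the same isolates and come from the same fit, so they are not independent. The sign was the same in both for 38 of the 44 genes, 17 were called lower in both and 3 higher in both (Rpa1, Rrm1 and Dut), and 0 were called in opposite directions. The same counts were not made over all genes, so this agreement is not shown to be particular to the replication genes. Another 3 genes were called only in the control-virus cultures (Mcm6, Prim2 and Rfc1) and 6 only in the deleted ones (Cdc6, Mcm3, Mcm7, Gins1, Rfc2 and Rpa2). A call in 1 comparison alone does not show that the effects differ, and the test of that difference is given below.

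Markers and the mitochondrial share moved in this pair of groups too. In Cre_TGFB against Cre, 3 of 7 tested leukocyte markers, 4 of 6 endothelial markers and 6 of 8 fibroblast markers were called lower. Another fibroblast marker, 1 of the 8, was called higher. Of 5 pericyte markers 1 was higher and 3 lower. Among all genes tested 29% were lower and 27.5% higher. The leukocyte sum was 267 ± 104 CPM (SD, n = 4) in Cre and 175 ± 68.7 in Cre_TGFB, and the endothelial sum 38.5 ± 2.49 and 18.2 ± 3.39 CPM. The fibroblast sum was 56968 ± 10548 CPM in Cre and 41514 ± 2451 in Cre_TGFB. Mitochondrial genes took 0.538% to 0.622% of counts in Cre and 0.757% to 1.6% in Cre_TGFB, so that here the groups did not overlap. The part of these values in the result was not tested.

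Among the helicase genes 8 of 12 fell. The counts by role here and in the following paragraph stand beside 29% lower and 27.5% higher among all genes tested. Mcm10 went from 1.87, 3.31, 1.96 and 1.87 CPM in Cre to 1.04, 1.06, 0.915 and 0.752 CPM in Cre_TGFB, without overlap (log2 fold change -1.25, SE 0.29, adjusted p = 0.00103 in edgeR). Gins4 went from 41.2, 39.1, 41.8 and 39.3 CPM to 23.7, 22.8, 21.8 and 22.6 CPM, nearly the same levels as with the control virus (log2 fold change -0.83, SE 0.06, adjusted p = 1.25e-09 in edgeR). Mcm5 went from 11.9, 15.8, 8.81 and 8.71 CPM to 6.34, 7.98, 4.68 and 4.87 CPM, here without overlap (log2 fold change -0.93, SE 0.27, adjusted p = 0.00674 in edgeR). Mcm3 and Mcm7 fell by 0.57 and 0.42 on the log2 scale, and Gins1, Gins2 and Gins3 by 0.88, 0.58 and 0.38. Mcm6 had 0.26 (SE 0.12, adjusted p = 0.0827 in edgeR, and 0.0147 with the block), Mcm2 0.18, Mcm4 -0.25 (called lower with the block, adjusted p = 0.0168) and Cdc45 -0.03.

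Among the other roles, Tk1 went from 8.12, 8.74, 8.13 and 6.41 CPM to 2.43, 2.73, 1.45 and 0.985 CPM, again the largest fall of the 44 (log2 fold change -2.04, SE 0.26, adjusted p = 2.51e-06 in edgeR). Prim1 went from 3.46, 3.92, 3.62 and 3.38 CPM to 1.48, 2.28, 1.43 and 1.74 CPM (log2 fold change -1.06, SE 0.18, adjusted p = 4.41e-05 in edgeR), and 5 of the 7 polymerase or primase genes fell. Lig1 went from 17.9, 19.4, 20.0 and 21.1 CPM to 10.4, 11.3, 10.4 and 10.6 CPM, without overlap (log2 fold change -0.88, SE 0.09, adjusted p = 1.62e-07 in edgeR). Rfc5 fell by 0.66 and Rfc2 by 0.26 on the log2 scale, while Rfc1 (-0.11), Rfc3 (-0.12), Rfc4 (-0.05) and Pcna (-0.07) were not called. Chaf1b, Uhrf1, Chaf1a and Slbp fell by 0.90, 0.83, 0.47 and 0.25, so that all 4 chromatin genes fell here too. Prim2 had -0.25 (adjusted p = 0.0661 in edgeR, and 0.0107 with the block).

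Rpa1 went from 107, 109, 118 and 133 CPM to 143, 134, 154 and 151 CPM, without overlap (log2 fold change 0.32, SE 0.09, adjusted p = 0.0047 in edgeR). Rrm1 went from 91.4, 102, 75.4 and 95.9 CPM to 128, 124, 123 and 114 CPM, also without overlap (log2 fold change 0.42, SE 0.12, adjusted p = 0.00442 in edgeR). Dut went from 16.2, 20.0, 14.3 and 12.9 CPM to 19.2, 21.5, 21.5 and 20.3 CPM, with a small overlap (log2 fold change 0.38, SE 0.15, adjusted p = 0.0350 in edgeR). Cdc6 fell by 0.77 (SE 0.30, adjusted p = 0.0389 in edgeR) and Rpa2 by 0.37 (SE 0.15, adjusted p = 0.0478 in edgeR) on the log2 scale. None of Ccne1 (-0.10), Ccne2 (-0.36) and E2f1 (-0.03) was called. Rrm2 had -0.52 (adjusted p = 0.172 in edgeR, and 0.0245 with the block).

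In the same kind of left-out fits, 16 calls held in all 19 alternatives (Mcm5, Mcm7, Mcm10, Gins1, Gins2, Gins4, Prim1, Pola1, Pola2, Pold1, Pole, Rfc5, Lig1, Tk1, Chaf1b and Uhrf1). Of the 3 rises, all lost their calls without replicate 1 and only Rrm1 kept its call without replicate 3, the lost calls having values from 0.28 to 0.41. Dut also lost its call without any 1 of Cre replicates 1, 3 and 4, Cre_TGFB replicates 2, 3 and 4 or replicate 4 in all groups (0.30 to 0.38). Cdc6 was lost without Cre replicate 1 or 2, Cre_TGFB replicate 1, 3 or 4, or replicate 1, 3 or 4 in all groups (-0.78 to -0.61), and Rpa2 in all left-out fits except those without Cre_TGFB replicate 2 or Cre replicate 4 (-0.48 to -0.28 over the 12 fits). Mcm3, Gins3 and Rfc2 lost their calls without Cre replicate 2, Cre_TGFB replicate 3, Cre_TGFB replicate 4 or replicate 4 in all groups (-0.57 to -0.20), Mcm3 and Rfc2 also without replicate 1 and Gins3 and Rfc2 without replicate 3. Chaf1a was lost without Cre_TGFB replicate 4, replicate 1 or replicate 4 (-0.38, -0.50 and -0.39) and Slbp without replicate 3 (-0.23).

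Members with and without E2F letters in the promoter both fell in part. In GFP_TGFB against GFP, 6 of the 12 with the letters were lower, 1 higher and 5 not called, and of the 24 matched genes without them 9 were lower, 3 higher and 12 not called. Median log2 fold changes were -0.43 with and -0.10 without the letters. In Cre_TGFB against Cre, 9 of the 12 were lower and 0 higher, and of the 24 again 9 were lower and 3 higher. The medians there were -0.48 and -0.11. Of all genes tested, 28.6% were lower and 26.6% higher in the control-virus cultures, and 29% and 27.5% in the deleted ones. The difference between genes with and without the letters was not tested. As printed above, the promoters of Mcm5, which fell, and of Mcm6, which rose in the control-virus cultures, both carry E2F letters and CCAAT boxes, and that of Tk1, with the largest fall, carries neither.

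Genes of the next phase of the cycle fell further. All 22 genes of a G2 and M phase list were called lower in both comparisons, with median log2 fold changes of -1.44 and -1.69, where the 44 replication genes had -0.30 and -0.36. Bub1b, a kinase of the mitotic checkpoint, went from 20.7 ± 2.99 CPM (SD, n = 4) to 7.60 ± 1.42 and Ccnb2, a mitotic cyclin, from 13.5 ± 4.26 to 3.70 ± 1.11 CPM. The mean log2 CPM of the replication genes was lower with TGFB by 0.29 ± 0.12 (SD over 4 isolates) in the control-virus cultures and by 0.37 ± 0.07 in the deleted ones. For the G2 and M phase genes the same differences were 1.38 ± 0.14 and 1.64 ± 0.22. In each of the 8 pairs of cultures the difference was larger for the G2 and M phase genes, and the difference between the lists was not tested.

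**Figure D3:**
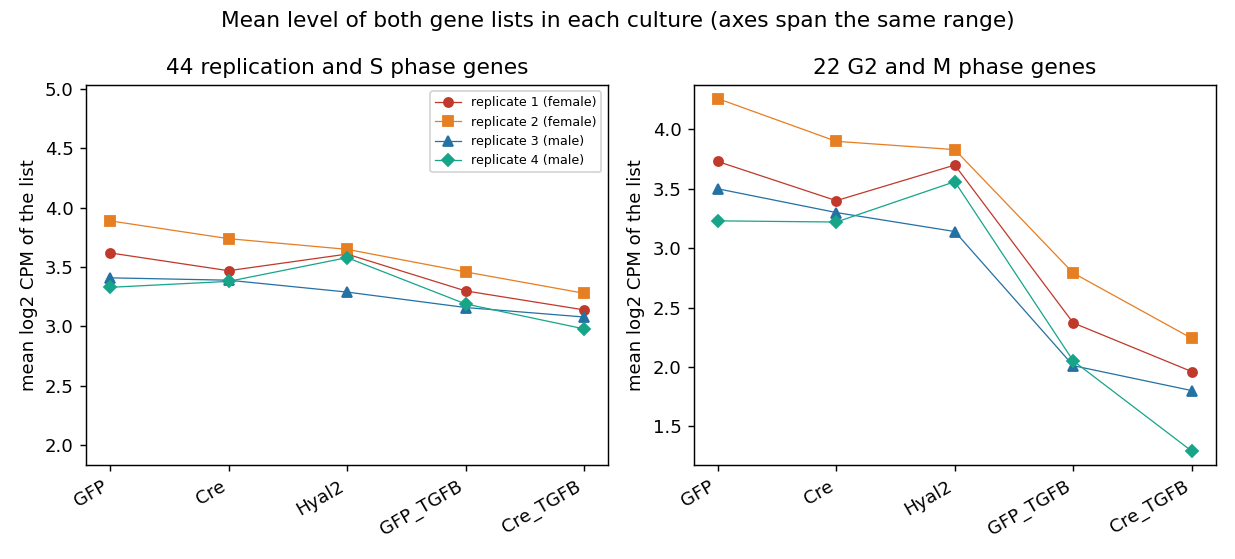
Mean log2 CPM (y axes, spans of equal size) of the 44 replication and S phase genes (left) and of 22 G2 and M phase genes (right) in the 5 groups (x axes), with 1 line per isolate. Both means are lower with TGFB in every isolate, by 0.14 to 0.46 on the left and by 1.18 to 1.93 on the right.

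Neighbouring parts of the replication machinery, taken from lists of gene names, were mixed in GFP_TGFB against GFP. The counts of these lists and of those in the following paragraphs stand beside 28.6% lower and 26.6% higher among all genes tested. Of 21 factors of origin recognition, firing and the fork, 7 fell and 3 rose. Timeless, a component of the fork protection complex, fell from 13.5 ± 1.43 CPM (SD, n = 4) to 4.07 ± 0.485, a log2 fold change of -1.72 (SE 0.12, adjusted p = 5.5e-10 in edgeR), while Mtbp, which acts in origin firing, rose from 12 ± 1.39 to 22.5 ± 5.09 CPM. Of 12 other polymerase, clamp and RNase subunits 5 fell and 2 rose, among them Pole4, a small subunit of polymerase epsilon, from 22.5 ± 2.98 to 38.1 ± 4.37 CPM. Of 14 genes of the replication checkpoint and fork repair 3 fell (5 with the isolate as a block), with Fancd2 at -0.87 and Brca1 at -0.73, and 4 rose, with Hus1 at 0.35 and Rad1 at 0.32. Of 8 other chromatin factors 3 fell, among them Dnmt1, the maintenance methyltransferase, by 0.31 on the log2 scale, and 1 rose.

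Nucleotide enzymes outside the 44 were also mixed, with 5 of 11 higher and 3 lower. Dctd, which makes dUMP from dCMP, rose from 4.81 ± 1.00 CPM (SD, n = 4) to 13.7 ± 1.87, and Cad, which carries out the first steps of pyrimidine synthesis, from 41.3 ± 3.11 to 78.2 ± 5.79 CPM. Samhd1, which breaks down dNTPs, fell from 65.3 ± 8.83 to 30.1 ± 2.35 CPM.

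Of the genes upstream of S phase, 9 of 18 G1 cyclins, kinases and inhibitors rose and 6 fell. Cdkn2b, the CDK inhibitor p15, rose from 30.8 ± 2.34 CPM (SD, n = 4) to 192 ± 26.7, a log2 fold change of 2.64 (SE 0.11, adjusted p = 1.1e-12 in edgeR). Fbxw7, which targets cyclin E for degradation, rose from 17.2 ± 0.991 to 31 ± 1.40 CPM. The inhibitors Cdkn2c (p18) and Cdkn1b (p27) fell, from 25.4 ± 1.23 to 14.9 ± 1.06 and from 43.4 ± 5.73 to 28.3 ± 1.45 CPM. Among 18 tested genes of E2Fs, pocket proteins and the MuvB complex 8 fell and 2 rose: Foxm1, a driver of G2 and M phase genes, fell by 0.89 and Rbl2, the pocket protein p130, by 0.52 on the log2 scale, and E2f3 and E2f4 rose by 0.44 and 0.32.

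Hyal2 deletion or overexpression was not accompanied by a called change in any of the 44 genes. In Cre against GFP, Hyal2 against GFP, Hyal2 against Cre and Cre_TGFB against GFP_TGFB, 0 of 44 were called by edgeR, and 0 by DESeq2, by limma-voom or with the isolate as a block. Of all genes tested edgeR called 0.0064%, 0.0064%, 0.0128% and 0.0064%, and with the block 0.269%, 0.0064%, 0.992% and 0.0064%. Before adjustment, 1, 1, 1 and 3 of the 44 had a p under 0.05 in edgeR, against 4.55%, 2.12%, 2.92% and 1.43% of all genes. Comparisons with the same control group share its libraries: Cre and Hyal2 were both compared with GFP, and Cre_TGFB with GFP_TGFB uses no library of these 3 groups. Median log2 fold changes were -0.06, -0.05, 0.00 and -0.12.

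**Figure D4:**
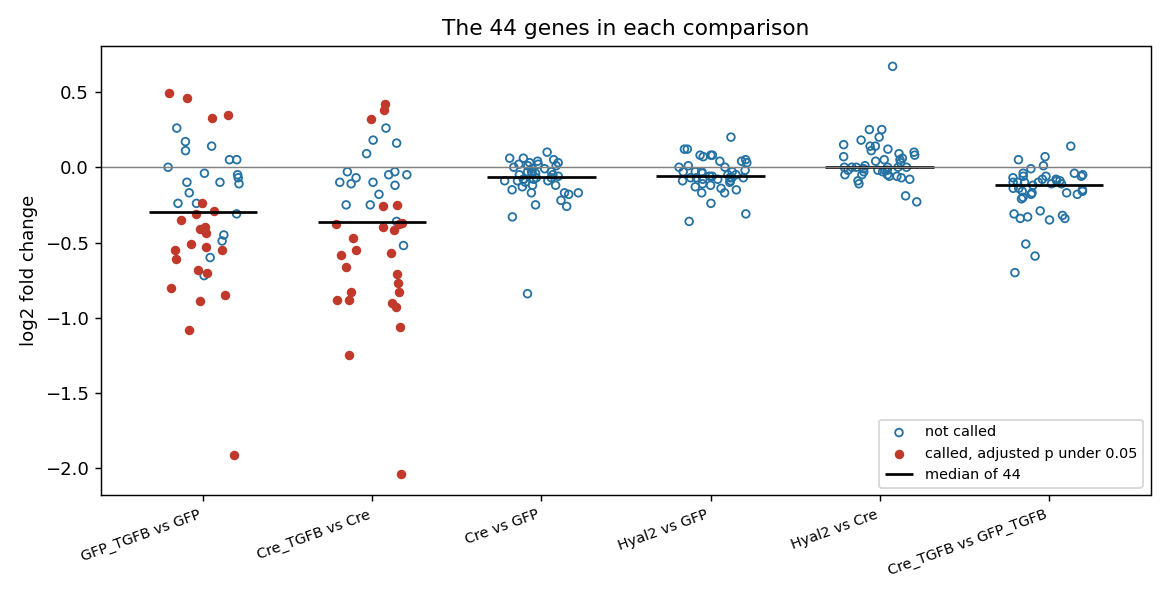
Log2 fold changes (y axis) of the 44 genes in 6 comparisons (x axis). Filled points passed an adjusted p under 0.05 in edgeR, open points did not, and lines are medians; the medians are -0.30 and -0.36 with TGFB and lie between -0.12 and 0.00 in the 4 comparisons of Hyal2 state, where no point is filled.

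Ccne2 was the gene nearest to a change with Hyal2 deletion. It lay at 2.64, 3.26, 2.03 and 2.60 CPM in GFP, 1.18, 1.94, 1.13 and 1.64 CPM in Cre and 2.41, 3.18, 1.42 and 2.42 CPM in Hyal2. The Cre libraries were all below the GFP libraries and the Hyal2 libraries overlapped both. The log2 fold change in Cre against GFP was -0.84 (SE 0.26, adjusted p = 0.647 in edgeR, and 0.106 with the block), and in Hyal2 against Cre 0.67 (SE 0.27, adjusted p = 1 in edgeR). It was the only one of the 44 without overlap in Cre against GFP, where 1.67% of all genes were lower and 2.01% higher without overlap. In Hyal2 against GFP only Gins3 was without overlap, from 4.73 ± 0.229 to 4.01 ± 0.437 CPM (SD, n = 4), with 0.685% of all genes lower and 0.563% higher in that way. In Hyal2 against Cre 0 of the 44 were without overlap, against 1.04% lower and 0.563% higher.

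With TGFB present, 40 of the 44 genes were below 0 in Cre_TGFB against GFP_TGFB, where 49.6% of all genes were. The median was -0.12, and single changes did not pass the test. In Cre against GFP and in Hyal2 against GFP, 32 of the 44 were below 0, with 50.2% and 51.3% of all genes. In Hyal2 against Cre it was 22, with 47.9%. The 44 genes were measured in the same libraries and are not replicates, and these counts were not tested. Between Cre_TGFB and GFP_TGFB, 5 of the 44 were lower without overlap (Mcm6, Mcm7, Mcm10, Gins1 and Lig1) and 0 higher, against 0.851% and 0.717% of all genes. Lig1 lay at 12.4, 13.4, 11.7 and 15.2 CPM in GFP_TGFB and 10.4, 11.3, 10.4 and 10.6 CPM in Cre_TGFB (log2 fold change -0.31, SE 0.09, adjusted p = 1 in edgeR). Mcm10 lay at 1.49, 2.08, 1.43 and 1.12 CPM and at 1.04, 1.06, 0.915 and 0.752 CPM (log2 fold change -0.70, SE 0.29, adjusted p = 1 in edgeR). Mcm6 and Mcm7 had means of 40.5 ± 1.40 and 20.1 ± 1.16 CPM (SD, n = 4) in GFP_TGFB and 36 ± 1.89 and 17.3 ± 1.02 in Cre_TGFB. The mean log2 CPM of the 44 was lower in Cre_TGFB in all 4 isolates, by 0.16 ± 0.06 (SD), and that of the G2 and M phase genes by 0.48 ± 0.23.

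The dependence of the TGFB difference on Hyal2 deletion, tested as an interaction, was called for 0 of the 44 genes and for 0% of all genes in edgeR, and for 0 of the 44 by DESeq2, by limma-voom or with the block. Before adjustment, 1 of the 44 had a p under 0.05 in edgeR, against 2.54% of all genes. This gene was Lig1, whose difference with TGFB was larger after deletion by 0.33 on the log2 scale (interaction -0.33, SE 0.13, adjusted p = 1 in edgeR). The median interaction was -0.08, and 31 of the 44 were below 0, where 51% of all genes were.

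Isolates differed within every group. The mean log2 CPM of the 44 genes was 3.56 ± 0.25 (SD, n = 4) in GFP, 3.49 ± 0.17 in Cre and 3.53 ± 0.16 in Hyal2, so the spread between isolates exceeded the differences between these groups. Replicate 2, a female isolate, had the highest mean of the 44 genes in all 5 groups, 3.89 log2 CPM in GFP and 3.46 in GFP_TGFB, while replicates 1, 3 and 4 had 3.62, 3.41 and 3.33 in GFP. In the cultures without TGFB, 7 of the 44 genes were higher in all 6 female than in all 6 male libraries (Cdc6, Prim2, Rpa2, Rrm2, Tyms, Dut and Ccne1), against 7.71% of all genes, and 0 were lower, against 8.4%. In the cultures with TGFB, 14 of the 44 were higher in all 4 female libraries (Mcm5, Gins2, Gins3, Pola2, Pold1, Pole, Rfc3, Rpa2, Rrm1, Tyms, Tk1, Chaf1a, Uhrf1 and Ccne1), against 10.9% of all genes, and 0 were lower, against 12.6%. With 2 isolates of each sex, sex and isolate cannot be told apart, and no test was made of this difference.

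Tyms alone passed the test of a sex difference in the TGFB effect. Its difference with TGFB in the GFP pair was -0.04 and -0.33 log2 CPM in the female isolates and 0.61 and 0.63 in the male ones. It was thus 0.82 higher in male than in female isolates (SE 0.19, adjusted p = 0.0437 in edgeR, where 0.928% of all genes were called in this direction). The deleted cultures share the isolates and the estimate of the spread with this test, but their means were not compared in it. Their differences with TGFB were 0.11 and -0.20 in the female and 0.58 and 0.39 in the male isolates. With the isolate as a block 4 of the 44 were called, against 3.23% of all genes: Tyms, Mcm2 (adjusted p = 0.00864), Dut (0.0338) and Rrm2 (0.0375). Mcm2 lay at 16.9, 23.8, 13 and 12.1 CPM in GFP and at 18.2, 20.6, 20.5 and 19.7 CPM in GFP_TGFB, so that, as for Tyms and Dut, the male isolates were the lower ones in GFP. The call of Tyms was lost without replicate 2, 3 or 4 (0.66, 0.85 and 0.80), and 0 genes were called with library totals in place of TMM factors.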

How the data were processed

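The authors deposited raw counts of reads per Ensembl gene for 20 libraries (Trizol RNA, DNase, NEBNext Ultra II, per the labels' protocols), made with HTSeq 0.10.0 and FastQC 0.10.1 on mm39/GRCm39, per the submitters' processing notes. The sources used here name no aligner, annotation release or strand setting. All 20 columns matched a labelled sample. Symbols came from GENCODE M21 on the older build GRCm38, which served for names (52081 of 55414 identifiers) and exon overlaps.

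Genes were kept by filterByExpr (at least 10 counts in 4 libraries, total 15), which left 15624 of 31062 genes with any count. Counts were tested with the robust quasi-likelihood F test of edgeR 4.0.16 (R 4.3.3), all 20 libraries in one fit, with a mean per group (per group and sex for the sex difference), TMM factors and no block. Calls needed an adjusted p under 0.05 (Benjamini-Hochberg, all tested genes). For SE, the size of the log2 fold change was divided by the root of F. CPM are TMM-normalised; list means use log2 CPM with a prior count of 2. DESeq2 1.42.0, limma-voom (limma 3.58.1), other size factors, no filter, only the groups compared and left-out libraries or isolates were alternatives, with library totals added after seeing the data. The edgeR fit without the block was run on simulated counts with known changes in GFP_TGFB against GFP only. The simulated libraries had no isolate effect, and the other fits were not run on simulated counts. Replicates held no identical counts. Replicate numbers carry 1 isolate name in all groups; deviations from group means correlated at 0.11 to 0.71 in same-numbered pairs and at -0.61 to 0.44 in others. Nothing says that isolates are single animals, so p-values measure the spread between these cultures.

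The members and lists were chosen with earlier results of these data known. Values by library are given, per role, for the 2 members with the largest absolute log2 fold change in GFP_TGFB against GFP and the one nearest 0, and for members called in other comparisons against the majority. The 2 genes of smallest p per direction were eligible for naming in each further list. The MCM subunits and Rrm2 were added after their values were seen.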

Additional observations from a re-analysis of the deposited data

Results flagged for a closer look

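In 10 of the 220 groups of 4 libraries examined (44 genes in 5 groups), the highest or lowest library stood apart from the other 3 by Dixon's criterion. Chance gives about 1 in 20 for independent groups. The 44 genes were measured in the same libraries, so the groups are not independent and the number flagged cannot be judged against that rate. Cre replicate 2 was the high library for 4 genes of the licensing and helicase roles: Cdt1 at 4.62 CPM, Mcm4 at 25.5 CPM, Mcm7 at 28 CPM and Mcm10 at 3.31 CPM. Hyal2 replicate 3 was the low library for Cdc45 at 3.89 CPM and Chaf1b at 3.59 CPM, and Cre replicate 1 for Pola1 at 6.98 CPM. In GFP_TGFB, replicate 1 was low for Rfc4 at 3.71 CPM and Rpa3 at 6.72 CPM, and replicate 2 was high for Chaf1b at 3.49 CPM. Without Cre replicate 2, Mcm10 and Mcm7 were still called lower in Cre_TGFB against Cre.

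The TGFB effect on Tyms differed between male and female isolates by 0.82 on the log2 scale (edgeR, adjusted p = 0.0437). Sex and isolate cannot be told apart with 2 isolates of each sex.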

How the results depend on the processing

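The number of replication genes called higher in GFP_TGFB against GFP was 2 with library totals (4 with TMM factors) and 1 to 5 with 1 library or isolate left out. The number called lower was 12 to 21 in the left-out fits. Shares of all genes called in the left-out fits are not given here. In Cre_TGFB against Cre the left-out fits gave 0 to 4 higher. For the sex difference in the TGFB effect the number higher was 4 with the replicate block, 0 with library totals, 4 with no filter on low counts and 0 to 2 in the left-out fits. The replicate block moved no other count of calls among the 44 genes by over 1.5 times. Directions of genes not called could turn. In GFP_TGFB against GFP, library totals gave -0.05 for Cdt1, -0.10 for Cdc45 and -0.05 for Ccne1, and Cdc45 had -0.02 with no filter and -0.01 with limma-voom. In the left-out fits Cdt1 ranged from -0.12 to 0.24, Cdc45 from -0.14 to 0.15, Pcna from -0.19 to 0.03, Rfc3 from -0.11 to 0.03, Rpa3 from -0.18 to 0.04, Fen1 from -0.16 to 0.17 and Ccne1 from -0.03 to 0.14. In Cre_TGFB against Cre they ranged from -0.16 to 0.05 for Cdt1, -0.09 to 0.01 for Cdc45, -0.11 to 0.01 for Pold2, -0.15 to 0.04 for Pcna, -0.17 to 0.04 for Rfc4, -0.03 to 0.16 for Rpa3, -0.28 to 0.01 for Fen1, -0.18 to 0.01 for Ccne1 and -0.10 to 0.05 for E2f1. The cause was not tested. Counts at 0 in the 4 comparisons of Hyal2 state and the interaction remained 0 in every alternative run. With 4 libraries a group and no block, genes such as Cdc6, Gins1 and Ccne2 had SE of 0.25 to 0.31. Log2 fold changes as large as -0.72 for Cdc6 with TGFB and -0.84 for Ccne2 in Cre against GFP were then not called. With the isolate as a block, the SE of Cdc6 was 0.16 and it was called lower (adjusted p = 0.000842 in edgeR), while Ccne2 in Cre against GFP was still not called.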
